A study of Rattus norvegicus with 6 samples.

Results

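The TRIM (tripartite motif) family was described in cerebral arteries of rats 6 hours after subarachnoid haemorrhage (SAH), bleeding onto the surface of the brain, and after sham surgery. Members were taken by symbol: a gene counted when its current symbol was Trim with a number, with or without a letter, and when a probe set was annotated to it alone. This gave 51 genes, from 52 probe sets, among 18166 genes represented on the arrays. Trim30d had 2 probe sets, and the one with the higher mean over all 6 arrays stood for it. The RefSeq gene table of the GRCr8 rat assembly holds 59 genes with such symbols, and the 8 not measured by a probe set naming them alone were Trim15, Trim23, Trim30c, Trim34, Trim38, Trim56, Trim60 and Trim68.

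The data were RMA expression values on the log2 scale from 6 Affymetrix arrays, each prepared from 6 µg of total RNA. All animals were male and no array carried a genetic change or drug by its labels. The SAH group held the arrays numbered 1, 4 and 5 and the sham group those numbered 6, 7 and 8, so that n was 3 in each group throughout. For sham arrays the interval since surgery is not labelled, and neither strain nor age is given for any array. Nothing says that the samples are separate animals, so the p-values cover only the spread between these arrays, which may be technical, and the number of arrays limits the precision.

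Array medians lay between 7.31 and 7.37, and arrays correlated with each other at 0.970 to 0.991 over probe sets. Markers were set beside the labelled tissue. None of the 7 measured smooth muscle genes and none of the 7 measured endothelial genes lay below the array median on all arrays. The same held for the monocyte and macrophage, fibroblast and oligodendrocyte lists, so this does not tell tissues apart. The mean over the smooth muscle list was 11.63 to 11.77 on SAH arrays and 11.88 to 12.08 on sham arrays, and Smtn, the contractile protein smoothelin, was the 1 member called lower. In RNA from whole arteries, fewer cells of a type and less RNA per cell cannot be told apart. Sham array 8 stood apart in its neutrophil markers, whose mean was 9.0 there against 6.94 and 7.02 on the other sham arrays. The mean over 8 neuron markers was also highest there, at 7.74 against 7.18 and 7.14 on sham arrays 6 and 7. On SAH arrays 1, 4 and 5 the neuron mean was 7.11, 7.29 and 7.56.

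Most TRIM proteins are ubiquitin ligases, built from a RING domain that recruits a ubiquitin-charged E2 enzyme, 1 or 2 B-box zinc-binding domains, and a coiled coil through which they dimerise. The carboxy-terminal domain sets what each one binds. A PRY/SPRY domain is typical of the antiviral members, a PHD finger and bromodomain of the chromatin regulators, and NHL or filamin repeats of others. Many antiviral members are induced by interferon through promoter elements bound by the STAT and IRF transcription factors, and several act on the sensors of viral RNA or on their adaptors. Others work in sarcomeres, at microtubules or in the nucleus, so the family as a whole shares an enzyme architecture rather than a pathway.

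Promoters are shown first because the members that differed most between the groups belong to the interferon-linked branch. RefSeq promoter windows of 300 bases on GRCr8, 250 bases before a start site and 50 from it, were matched to 42 of the 51 members. They were searched on both strands for the core of the interferon-stimulated response element (ISRE), spelled GAAANNGAAA, and for the core of the interferon-gamma activated site, spelled TTCNNNGAA. Matches of 1 motif were allowed to overlap each other. The ISRE core was found in 3 members, Trim21, Trim26 and Trim40, and in 1312 of all 33469 promoter windows (3.92%). The activated-site core was found in 1 member, Trim31, and in 2970 of all windows (8.87%). The 3 windows with the ISRE core are given 5′ to 3′ in the direction of the gene, with the bases covered by its matches in capitals.
Trim21, GRCr8 chr1:166399322-166399621, minus strand: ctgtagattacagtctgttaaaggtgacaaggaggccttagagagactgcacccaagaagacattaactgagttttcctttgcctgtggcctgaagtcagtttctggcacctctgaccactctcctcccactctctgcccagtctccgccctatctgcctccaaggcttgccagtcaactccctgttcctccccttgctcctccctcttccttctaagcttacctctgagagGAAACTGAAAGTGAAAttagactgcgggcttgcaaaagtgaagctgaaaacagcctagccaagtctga
Trim26, GRCr8 chr20:1736262-1736561, minus strand: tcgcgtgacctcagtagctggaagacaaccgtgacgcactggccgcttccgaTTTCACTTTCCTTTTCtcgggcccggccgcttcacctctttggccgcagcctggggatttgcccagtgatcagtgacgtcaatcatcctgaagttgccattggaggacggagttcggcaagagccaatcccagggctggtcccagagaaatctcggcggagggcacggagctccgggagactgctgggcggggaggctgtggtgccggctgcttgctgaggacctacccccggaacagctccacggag
Trim40, GRCr8 chr20:1681083-1681382, plus strand: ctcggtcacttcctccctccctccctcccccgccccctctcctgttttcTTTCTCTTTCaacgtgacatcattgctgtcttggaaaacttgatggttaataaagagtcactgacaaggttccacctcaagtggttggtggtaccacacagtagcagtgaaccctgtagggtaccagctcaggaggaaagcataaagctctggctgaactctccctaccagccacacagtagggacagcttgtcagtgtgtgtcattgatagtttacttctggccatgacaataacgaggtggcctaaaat
The Trim21 window held 2 overlapping matches on the strand of the gene, beginning 18 and 12 bases before the start site. The Trim26 window held 2 overlapping matches on the other strand, 198 and 192 bases before the start, and the Trim40 window held 1 on the other strand, 201 bases before it. A match is a description of letters in this window, and a gene can have further start sites that the window does not cover. Of the 5 members called higher after SAH, 4 had a promoter in the table and 1 of these, Trim21, held the ISRE core. Trim14 and Trim69 had none in the table.

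Comparing SAH with sham, 5 of the 51 members were higher after SAH at an adjusted p under 0.05 and 0 were lower, by limma's moderated test, adjusted by Benjamini and Hochberg's method across 36495 probe sets. The 5 were Trim30d, Trim21, Trim25, Trim5 and Trim14, all assigned to antiviral and interferon signalling. Roles were assigned with earlier results of these data known. Over all genes, 1.29% were called in either direction, 0.963% higher and 0.33% lower, against 9.8% of the members. At an unadjusted p under 0.05 the members numbered 11, of which 7 were higher and 4 lower. The median difference, SAH minus sham, was 0.05 over the 51 members and -0.01 over all genes.

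**Figure D1:**
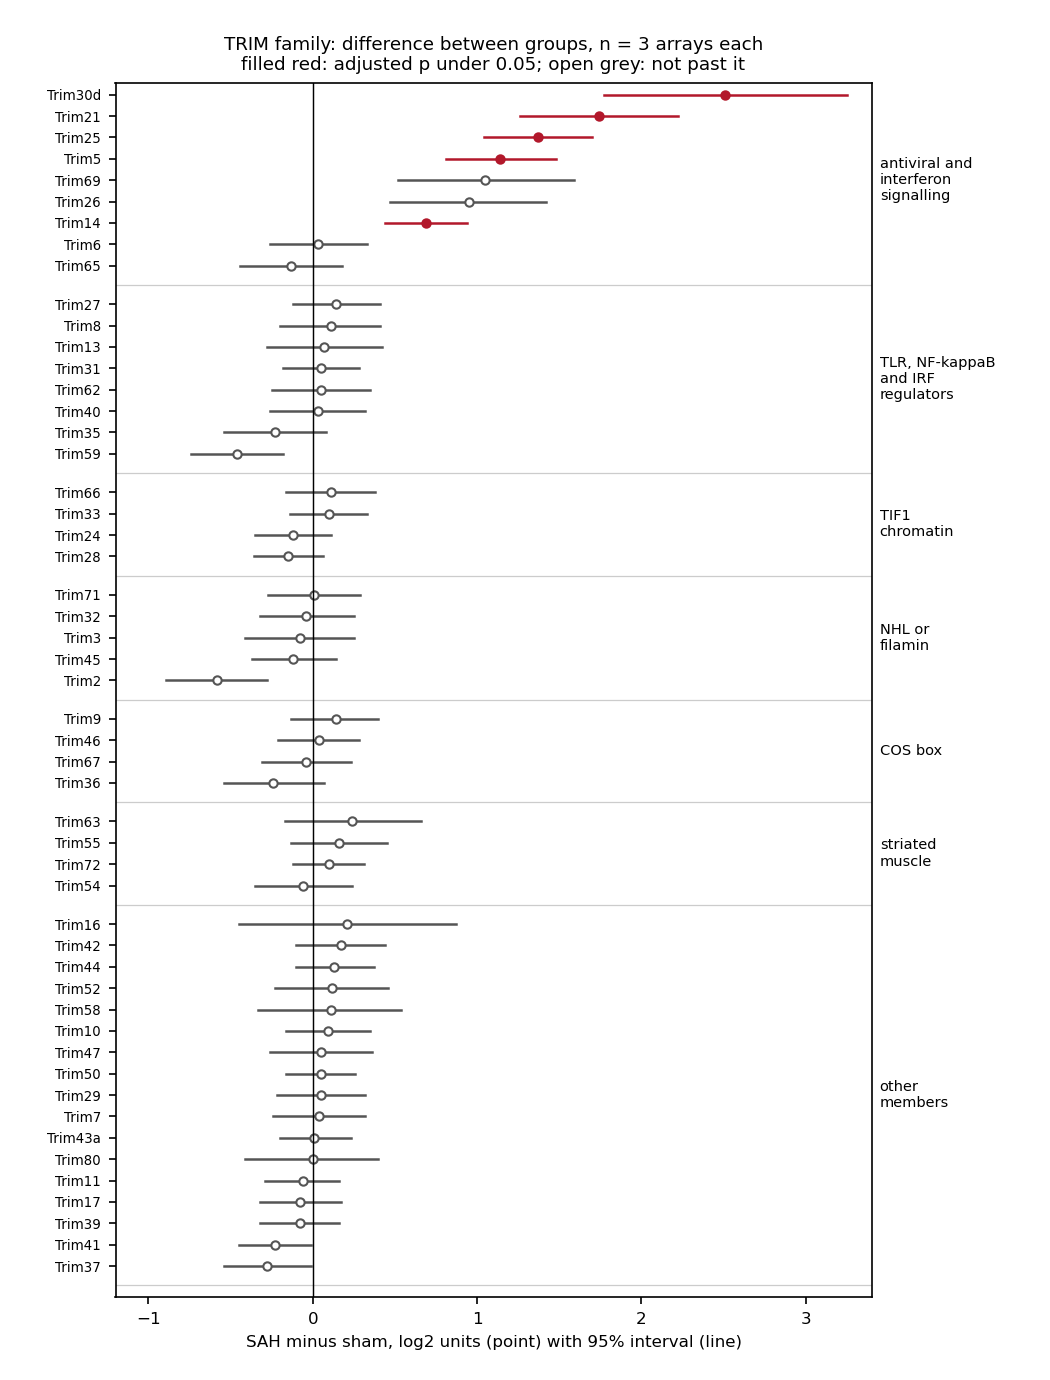
Difference between the SAH and sham means for each of the 51 TRIM members, in log2 units, with its 95% interval from limma; members are grouped by role and filled red where the adjusted p was under 0.05. The 5 red members, between 0.69 and 2.51, all lie in the antiviral group at the top, while most other points lie close to 0.

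Trim25 had the smallest p of the family. It encodes a ligase that modifies the viral RNA sensor RIG-I with ubiquitin and is a cofactor of the antiviral protein ZAP. Its log2 values (probe set 17650179) were 11.74, 12.14 and 12.19 on SAH arrays 1, 4 and 5 and 10.67, 10.59 and 10.70 on sham arrays 6, 7 and 8. The groups did not overlap, with 1.04 log2 units between the lowest SAH and the highest sham array. The means were 12.02 ± 0.25 and 10.65 ± 0.06 (SD, n = 3 each), a difference of 1.37 ± 0.14 (SE) or 2.59-fold, with a 95% interval of 1.04 to 1.70 log2 units and a limma adjusted p of 0.0116.

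Trim21 encodes the cytosolic antibody receptor also known as Ro52, which marks antibody-coated virus for destruction by the proteasome. Its values (probe set 17635516) were 10.74, 11.39 and 11.45 after SAH and 9.32, 9.41 and 9.63 after sham surgery. SAH array 1 was the lowest of its group and still lay 1.12 log2 units above the highest sham array. Means of 11.19 ± 0.39 and 9.45 ± 0.16 differed by 1.74 ± 0.20 (95% interval 1.26 to 2.22), a 3.34-fold difference with a limma adjusted p of 0.0214.

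Trim5 encodes a restriction factor that binds the capsids of incoming retroviruses. On probe set 17635675 its values were 12.12, 12.53 and 12.59 after SAH and 11.31, 11.26 and 11.23 after sham surgery. The sham arrays agreed closely, and the gap between the groups was 0.82. The difference was 1.14 ± 0.14 (0.81 to 1.48), from means of 12.41 ± 0.25 and 11.27 ± 0.04, or 2.21-fold with a limma adjusted p of 0.0242. In the RefSeq gene order of GRCr8, Trim5 lies on chromosome 1 in a run of Trim6, Trim34, Trim5, Trim30c and Trim30d without another protein-coding gene between them, and cross-hybridisation among these related genes was not tested.

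Trim30d, a member of the Trim30 branch that is expanded in rodents, had the largest difference of the family. Its main probe set (17635690) read 9.60, 10.64 and 10.61 after SAH and 7.53, 7.61 and 8.17 after sham surgery. Here too SAH array 1 was the lowest of its group, and the gap to the highest sham array was 1.43. Means of 10.28 ± 0.59 and 7.77 ± 0.35 differed by 2.51 ± 0.31 (1.77 to 3.25), or 5.71-fold, with a limma adjusted p of 0.0247. Its other probe set (17635687) was above the array median on 1 array only and read 5.86, 8.10 and 7.15 after SAH and 4.81, 5.84 and 5.82 after sham surgery. There the groups were 0.01 apart and differed by 1.54 ± 0.56 (0.21 to 2.88), with an adjusted p of 0.279. The 2 probe sets thus lay in the same direction but on different sides of the threshold, and their mean differed by 2.03 ± 0.42 with a limma adjusted p of 0.101.

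Trim14 encodes a member without a RING domain that sits at mitochondria as an adaptor of the antiviral protein MAVS. It had the smallest difference of the 5. Its values (probe set 17807085) were 8.07, 8.23 and 8.04 after SAH and 7.50, 7.47 and 7.31 after sham surgery, with a gap of 0.53. Means of 8.11 ± 0.10 and 7.43 ± 0.10 differed by 0.69 ± 0.11 (0.44 to 0.94), or 1.61-fold, with a limma adjusted p of 0.0478. With array medians subtracted the adjusted p was 0.0572. Trim14 was above the array median on 5 of the 6 arrays, and the other 4 called members on all 6.

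**Figure D2:**
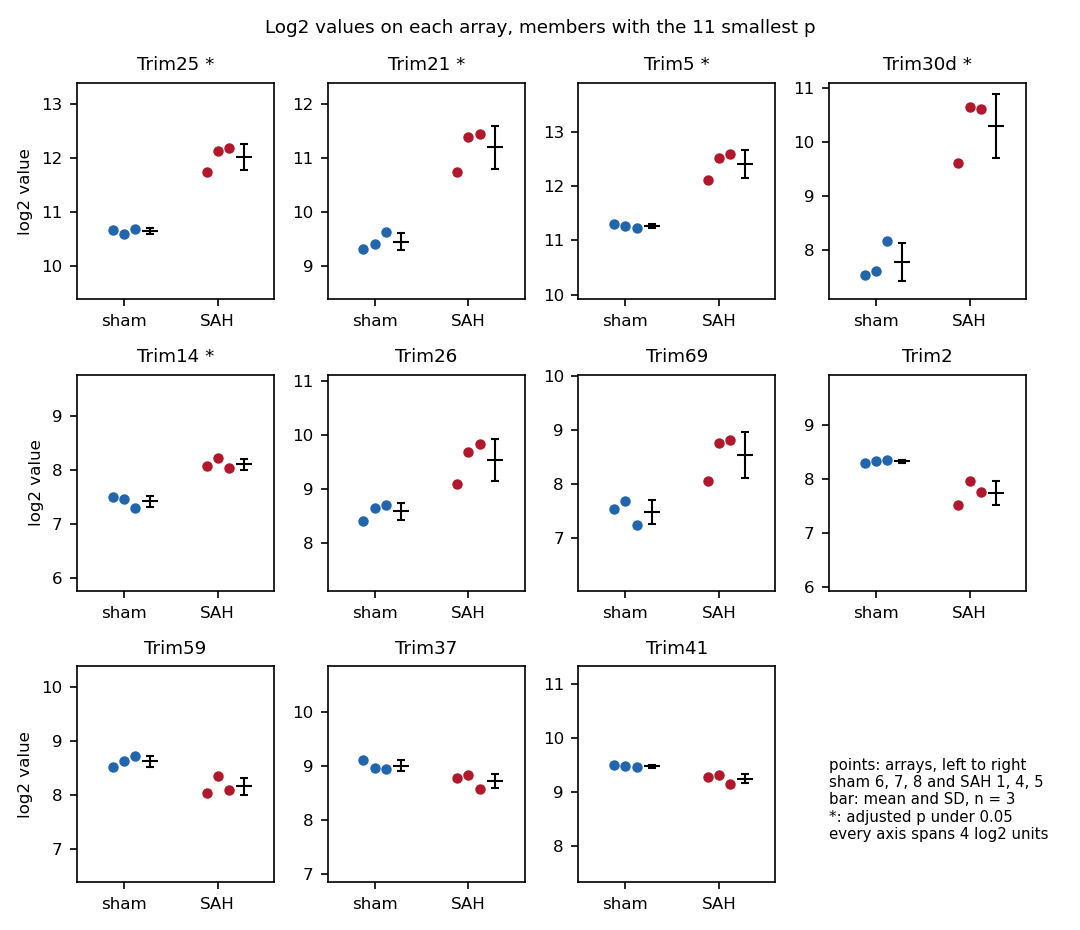
Log2 value on each array for the 11 members with the smallest p, with sham arrays 6, 7 and 8 in blue and SAH arrays 1, 4 and 5 in red; bars give the mean and SD of 3 arrays and every axis spans the same number of log2 units. In each panel the groups do not overlap, which follows in part from picking the smallest p. Among all genes the groups do not overlap in 11.4% with SAH above and 15.4% with SAH below. SAH array 1 is the lowest of its group in Trim25, Trim21, Trim5, Trim30d, Trim26 and Trim69, where it is the nearest to sham. It is also the lowest in Trim2 and Trim59, where it is the farthest from sham.

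The number of calls changed with single arrays. With 1 array left out at a time, 7 members were called without SAH array 1, 2 without sham array 8 (Trim25 and Trim30d), and 0 when either of SAH arrays 4 and 5, or either of sham arrays 6 and 7, was left out. In those last 4 fits limma gave 11, 9, 9 and 9 members at an unadjusted p under 0.05. The difference stayed between 1.29 and 1.51 for Trim25, 1.62 and 1.97 for Trim21, 1.06 and 1.29 for Trim5, 2.34 and 2.85 for Trim30d, and 0.63 and 0.73 for Trim14. Their adjusted p reached 0.0871, 0.125, 0.135, 0.14 and 0.203 in that order.

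Trim26 and Trim69 were the next members by p and did not pass the test. Trim26, a ligase encoded in the major histocompatibility region, read 9.10, 9.69 and 9.83 after SAH and 8.41, 8.66 and 8.70 after sham surgery (probe set 17756066). The groups did not overlap, and their means of 9.54 ± 0.39 and 8.59 ± 0.16 differed by 0.95 ± 0.20 (0.47 to 1.42) with an adjusted p of 0.107. Trim69, which binds microtubules and restricts some RNA viruses, read 8.06, 8.76 and 8.82 against 7.54, 7.69 and 7.24 (probe set 17765549). Its means of 8.54 ± 0.42 and 7.49 ± 0.23 differed by 1.05 ± 0.23 (0.52 to 1.59), with an adjusted p of 0.109. Both intervals lay above 0. Without SAH array 1, which was the lowest of its group in both genes, the differences were 1.17 and 1.30 and the adjusted p 0.0146 and 0.0167. No other leave-out fit called either gene, and there the limma adjusted p reached 0.347 for Trim26 and 0.317 for Trim69. With dim probe sets filtered out, leaving fewer tests to adjust for, the adjusted p was 0.0454 for Trim26 and 0.0464 for Trim69.

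The antiviral group thus held 9 measured members, of which 5 were higher, 0 lower and 4 did not pass, with a median difference of 1.05. The group was drawn up with earlier results of these data known. In 7 of the 9 the SAH arrays all lay above the sham arrays, against 11.4% of all genes. The remaining pair were close to 0. Trim6, which makes free ubiquitin chains that activate the kinase IKKε, was above the array median on no array and read 6.50, 6.13 and 6.21 against 6.32, 6.22 and 6.21, a difference of 0.03 ± 0.12 (-0.26 to 0.33). Trim65, a ligase of the RNA sensor MDA5, differed by -0.13 ± 0.13 (-0.44 to 0.18). The intervals of Trim6 and Trim65 lay below those of the 5 called members. The difference between members was not tested. Trim23, Trim30c, Trim34, Trim38 and Trim56, which were assigned to the same role, were not analysed here.

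In the chromosome 1 run Trim6 lies next to Trim34, with Trim5 on the far side of it, and Trim21 lies elsewhere on that chromosome among olfactory receptor genes. On chromosome 20 the run Trim31, Trim40, Trim10, Trim15, Trim26 ends beside the class I gene RT1-M1-5. Of its measured members, Trim31 differed by 0.05 (-0.18 to 0.28), Trim40 by 0.03 (-0.26 to 0.32) and Trim10 by 0.09, against 0.95 for Trim26. Trim40, whose window holds the ISRE core printed above, read 6.98, 6.79 and 6.74 after SAH and 6.95, 6.81 and 6.66 after sham surgery, so its groups overlapped.

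At the other end of the family, 4 members had lower values after SAH with an interval below 0, and none of the 4 passed the adjusted test. Trim2, an NHL-repeat ligase known from neurons, where it acts on the neurofilament light chain, read 7.51, 7.95 and 7.75 after SAH and 8.29, 8.33 and 8.34 after sham surgery (probe set 17748341). Its means of 7.73 ± 0.22 and 8.32 ± 0.03 differed by -0.58 ± 0.13 (-0.89 to -0.28), with an adjusted p of 0.115. All 3 SAH arrays lay below all 3 sham arrays. With dim probe sets filtered out the difference was -0.58 and the adjusted p 0.0473. With 1 array left out at a time, limma called Trim2 in no fit, at adjusted p of 0.0997 to 0.339.

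Trim59, a membrane-anchored regulator of Toll-like receptor signalling, read 8.04, 8.34 and 8.08 against 8.52, 8.62 and 8.72 (probe set 17747873). The groups did not overlap, and their means of 8.16 ± 0.16 and 8.62 ± 0.10 differed by -0.46 ± 0.12 (-0.74 to -0.18) with an adjusted p of 0.152. Trim37, a ligase of peroxisomes and centrosomes, read 8.78, 8.83 and 8.58 against 9.12, 8.96 and 8.95, a difference of -0.28 ± 0.11 (-0.54 to -0.01; adjusted p 0.324). Trim41 read 9.28, 9.32 and 9.16 against 9.51, 9.48 and 9.46, a difference of -0.23 ± 0.09 (-0.45 to -0.01; adjusted p 0.325). The differences in Trim37 and Trim41 were small. Their SDs on SAH and sham arrays were 0.13 and 0.10 for Trim37 and 0.08 and 0.03 for Trim41.

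Over the whole family the SAH arrays all lay above the sham arrays in 8 members (15.7%), against 11.4% of all genes, and all below in 7 members (13.7%), against 15.4% of all genes. The share above was therefore a little over the background and the share below a little under it. The 8 were the 7 antiviral members and Trim44, a member without a RING domain, whose groups were 0.02 apart and differed by 0.13 ± 0.10. The 7 were Trim2, Trim59, Trim37, Trim41, Trim36, Trim28 and Trim24. Differences were above 0 in 33 members and below 0 in 18.

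**Figure D3:**
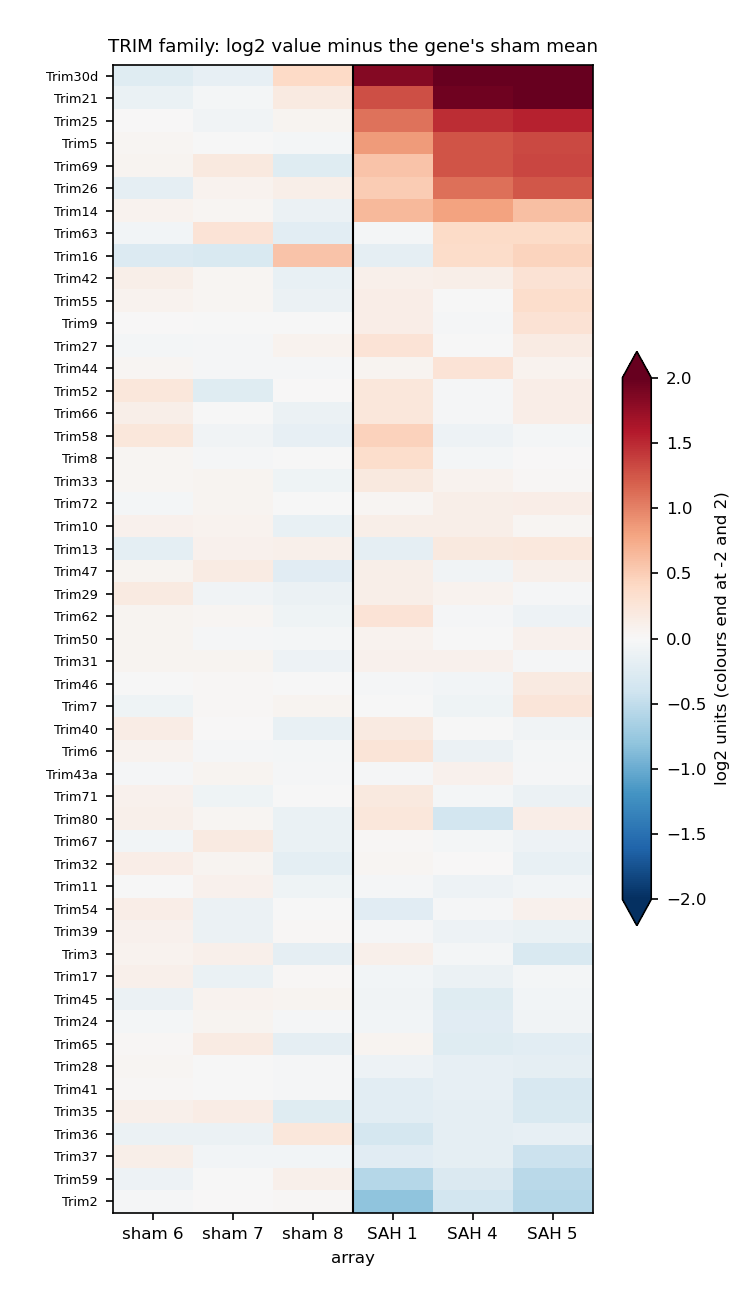
Log2 value of each of the 51 members on each of the 6 arrays minus that gene's sham mean, with members ordered by their difference and colours ending at -2 and 2. The 7 antiviral rows at the top are red on all SAH arrays, paler on SAH array 1 than on SAH arrays 4 and 5 in all of them but Trim14, and the Trim2 and Trim59 rows at the foot are blue on all SAH arrays.

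Of the 46 members that did not pass, 36 had a 95% interval that lay within -0.5 to 0.5 log2 units. The interval reached past that band in 10, Trim26, Trim69, Trim2, Trim59, Trim37, Trim36, Trim35, Trim63, Trim58 and Trim16. For the 36, a change larger than 0.5 log2 units at 6 hours lay outside the interval, which is a bound and not a demonstration of no change. The median difference of the 46 was 0.04, and 41 of them differed by less than 0.25 in either direction. Detection matters here: 26 of the 51 members were above the array median on all 6 arrays and 15 on none, where 56.8% of all genes were above it on all 6. Values near background understate a difference.

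The 8 regulators of Toll-like receptor, NF-kappaB and IRF signalling had no called member and a median difference of 0.05, from -0.46 (Trim59) to 0.14 (Trim27). Trim8, which adds ubiquitin to the kinase TAK1 in tumour necrosis factor signalling, read 10.24, 9.85 and 9.90 after SAH and 9.93, 9.87 and 9.88 after sham surgery, a difference of 0.11 ± 0.13 (-0.20 to 0.41). SAH array 1 was the one high value, and without it the difference was -0.02. Trim35 differed by -0.23 (-0.54 to 0.08).

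The 4 chromatin regulators of the TIF1 type were likewise not called, with differences between -0.15 and 0.11. Trim28, also known as KAP1, is the co-repressor that KRAB zinc-finger proteins use to silence genes and transposable elements. It read 9.64, 9.57 and 9.56 after SAH and 9.77, 9.73 and 9.71 after sham surgery, a difference of -0.15 ± 0.09 (-0.36 to 0.06; adjusted p 0.508). The SAH arrays were all slightly lower, within an interval that includes 0. Trim24, which reads histone marks, read 8.26, 8.09 and 8.25 against 8.28, 8.38 and 8.30, a difference of -0.12 ± 0.10 (-0.35 to 0.11). Trim33, a regulator of SMAD4 in TGF-beta signalling, read 9.64, 9.52 and 9.48 against 9.48, 9.50 and 9.35, a difference of 0.10 ± 0.10 (-0.14 to 0.33). None of the 8 measured partners of TRIM28 was called and their median difference was -0.04. Those with the smallest p were Morc3, at 0.85 ± 0.17 (adjusted p 0.0857), and the chromatin remodellers Chd4, at -0.47 ± 0.09 (0.0931), and Chd3, at -0.35 ± 0.12 (0.264).

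The 4 striated muscle members were dim: none was above the array median on all 6 arrays and 3 were above it on none. Trim63, the muscle atrophy ligase MuRF1, read 7.48, 7.90 and 7.90 after SAH and 7.47, 7.79 and 7.30 after sham surgery, a difference of 0.24 ± 0.17 (-0.17 to 0.66; adjusted p 0.592) between overlapping groups. Trim55, its relative MuRF2, read 6.10, 5.96 and 6.31 against 6.04, 6.01 and 5.86, a difference of 0.16 ± 0.12 (-0.13 to 0.45). The 6 measured skeletal muscle markers had means of 7.36 to 7.47 on SAH arrays and 7.42 to 7.53 on sham arrays. Of the 7 genes of the atrophy programme in which Trim63 acts, all measured, none was called. Foxo1, a transcription factor that drives Trim63 in wasting muscle, differed by -0.42 ± 0.10 (adjusted p 0.124), the ligase Fbxo30 by 0.32 ± 0.10 (0.227) and the glucocorticoid receptor Nr3c1 by 0.48 ± 0.16 (0.232).

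Among the 5 NHL or filamin members, Trim32, a ligase mutated in a limb-girdle muscular dystrophy, read 8.54, 8.51 and 8.35 after SAH and 8.63, 8.56 and 8.31 after sham surgery, a difference of -0.04 ± 0.12 (-0.32 to 0.25). Apart from Trim2, the group lay between -0.12 (Trim45) and 0.01 (Trim71). The 4 COS box members, which bind microtubules and are best known from neurons, lay between -0.24 (Trim36) and 0.14 (Trim9), with 0 called. The SAH arrays were all below the sham arrays in Trim36, with an interval of -0.54 to 0.07.

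The other 17 members lay between -0.28 and 0.21 with a median of 0.05 and 0 called. Trim47, a neighbour of Trim65 at a locus linked by human genetics to cerebral small vessel disease, read 9.88, 9.69 and 9.87 after SAH and 9.83, 9.93 and 9.54 after sham surgery. The groups overlapped, with a difference of 0.05 ± 0.13 (-0.26 to 0.36), and without sham array 8 the difference was -0.06. Trim16, which marks damaged endomembranes for autophagy and was chosen here after its values were seen, read 8.33, 8.87 and 8.96 against 8.24, 8.21 and 9.08. Its sham array 8 was the highest of all 6, and the difference was 0.21 ± 0.28 (-0.45 to 0.87; adjusted p 0.795).

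TRIM proteins that carry other symbols were looked at separately, of which 4 of 5 listed were measured. Pml, the scaffold of PML nuclear bodies and itself interferon-inducible, read 10.66, 11.06 and 11.22 after SAH and 9.44 on each sham array. It was called higher, at 1.54 ± 0.15 (1.18 to 1.90) or 2.91-fold, with a limma adjusted p of 0.0107. Mefv, the pyrin inflammasome sensor, differed by 0.61 ± 0.30 (adjusted p 0.413), and the microtubule-binding Mid2 and Mid1 by -0.24 ± 0.11 (0.407) and -0.11 ± 0.12 (0.734).

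The proteins that antiviral TRIM ligases act on or with were a list of 18 genes, drawn up with earlier results of these data known. Of the 17 measured, 3 were called higher and 0 lower, with a median difference of 0.16. Over all genes, 0.963% were called higher. Rig1 (current symbol Rigi), the RNA sensor modified by TRIM25, was 5.12-fold higher, with 12.33, 12.64 and 12.61 against 10.11, 10.29 and 10.10 and an adjusted p of 0.00189. Ifih1, which encodes the RNA sensor MDA5, differed by 2.26 ± 0.30 or 4.8-fold (adjusted p 0.0304), while its ligase gene Trim65 differed by -0.13. Zc3hav1, which encodes ZAP, differed by 1.30 ± 0.20 or 2.47-fold (0.0461). The other 14 did not pass: Irf5 differed by 0.63 ± 0.17 (0.168), Irf8 by 0.56 ± 0.23 (0.335), and Vcp, the unfoldase used by TRIM21, by 0.37 ± 0.12 (0.228). Of the ubiquitin, E1 and E2 genes, 7 of 16 were measured and 0 called, with a median of -0.04. Uba1, the main E1 enzyme, differed by 0.26 ± 0.09 (adjusted p 0.276), and the E2 genes Ube2d1 and Ube2k by -0.21 ± 0.13 (0.534) and -0.07 ± 0.09 (0.797).

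Interferon-stimulated reference genes were set beside the members as a description, since they were already known to be high in these arrays: 10 of 11 measured were called higher, with a median difference of 2.54. Taking each gene's value minus its sham mean, the median over the 11 was 2.24, 2.68 and 2.71 on SAH arrays 1, 4 and 5. The same median over the 5 called TRIM members was 1.09, 1.48 and 1.54, so both were lowest on SAH array 1. On sham arrays 6, 7 and 8 it was 0.02, -0.04 and 0.05. For the 46 members not called, this median lay between -0.03 and 0.05 on every array. Members were split into called and not called by p on these same arrays, so the medians near 0 follow in part from that split.

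**Figure D4:**
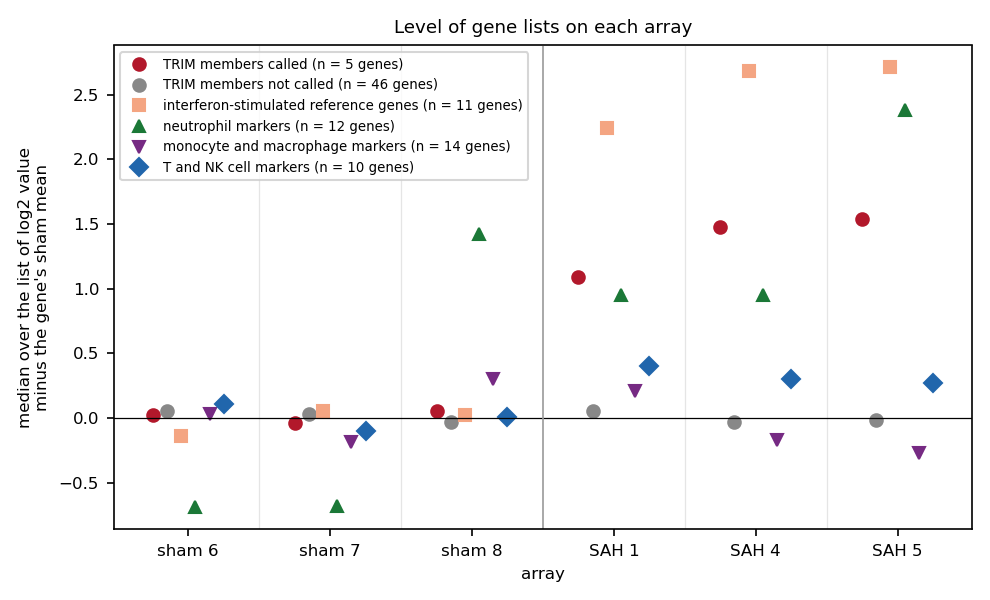
For each array, the median over a gene list of the log2 value minus the gene's sham mean, for called and other TRIM members, interferon-stimulated reference genes and 3 leukocyte marker lists. Called TRIM members have medians of 1.09 to 1.54 on SAH arrays and near 0 on all sham arrays. They were called on these same arrays, so a sham median near 0 follows in part from that choice. Neutrophil markers stand at 1.42 on sham array 8.

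Leukocytes also express antiviral TRIM genes, so marker levels are given beside the calls. Neutrophil markers, 12 of 13 measured, had means of 8.39, 8.54 and 9.62 on SAH arrays and 6.94, 7.02 and 9.0 on sham arrays. None of the 12 was called, their median difference was 1.54, and Ngp and Ltf lay below the array median on every array. On sham array 8, where the neutrophil mean was 9.0, the 5 called TRIM members had a median of 0.05 relative to their sham mean. By gene the value there was 0.400 for Trim30d, 0.175 for Trim21, 0.049 for Trim25, -0.034 for Trim5 and -0.115 for Trim14. This is 1 array, each value is relative to a mean that includes it, and the 5 were called on these same arrays. The 14 monocyte and macrophage markers had means of 9.52 to 9.70 after SAH and 9.34 to 10.00 after sham surgery, with a median difference of -0.09 and 0 called. Members of this list lay on both sides of 0. Ccr2, a chemokine receptor of recruited monocytes, differed by 1.86 (0.45 to 3.27; limma adjusted p 0.228) and the pan-leukocyte gene Ptprc by 0.93 (0.29 to 1.58; 0.196), and in both all SAH arrays lay above all sham arrays. Cd163 and Mrc1, receptors of resident macrophages, differed by -1.29 (-2.33 to -0.25; 0.25) and -1.24 (-2.16 to -0.32; 0.218) between overlapping groups. The SAH arrays all lay below the sham arrays in Csf1r, C1qa, C1qb and C1qc. Over all genes, 15.4% lay all below in this way and 11.4% all above, as Ccr2 and Ptprc did. The 10 T and NK cell markers had means of 6.77 to 6.85 against 6.32 to 6.53 and 0 called. Their median difference was 0.36. All SAH arrays lay above all sham arrays in Cd3e, Cd2, Cd247, Lck, Nkg7, Prf1 and Gzmb, a pattern in 11.4% of all genes. The groups overlapped in Cd3d, Cd3g and Ncr1. Nkg7 differed by 1.02 (0.41 to 1.64, limma adjusted p 0.151) and Prf1 by 0.56 (0.24 to 0.88, 0.135). Of the 10, Cd3e, Cd3d, Cd3g, Cd2, Gzmb and Ncr1 lay below the array median on every array. Oligodendrocyte markers, 5 of 6 measured, had means of 8.18 to 8.61 against 7.90 to 8.07, also with 0 called. Endothelial markers, 7 of 9 measured, had means of 10.0 to 10.28 on SAH arrays and 10.15 to 10.44 on sham arrays. Their median difference was -0.29, with 0 called and members on both sides of 0. The part of the marker lists in this paragraph, and of the neuron and smooth muscle lists, in the TRIM results was not tested.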

How the data were processed

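Expression was measured in cerebral arteries on 3 SAH and 3 sham arrays. The deposited values are log2 values that the authors made with Affymetrix Expression Console 1.1.2 and RMA, per the submitters' processing notes; a general change in RNA amount cannot be seen in such values, and the build is not given in the sources used here. Of 36685 probe sets, 190 controls were left out and 36495 tested. GEO's platform annotation named 1 gene for 18511, several for 575 and none for 17409, which stayed in the test. Genes took the probe set with the highest mean.

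The 2 groups were fitted without covariates in limma 3.58.1 (R 4.3.3; lmFit and eBayes, two-sided). P-values were adjusted by Benjamini and Hochberg's method across all tested probe sets, and calls were made at an adjusted p under 0.05. The test was checked on simulated data. Folds are 2 to the power of the log2 difference. The members, gene lists and roles were chosen with earlier results of these data known. Every member could be named. Values on each array are given for called members, the next 6 by p and a panel, and outside that rule for Trim6, Trim16 and Trim40. Pathway lists name called genes and up to 3 others, while marker genes were named outside that rule. The alternatives were a dim-probe filter, repeated quantile normalization, subtracted medians, trend and robust eBayes, array weights, other ways to represent a gene, adjustment over named genes, an adjusted p under 0.10, and each array left out. Promoters came from RefSeq on GRCr8. Marker and pathway lists named above were summarised by counts, means and medians, and values of single genes in them came from the same fit. No list was tested as a set.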

Additional observations from a re-analysis of the deposited data

How the results depend on the processing

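The count of 5 called members was 5 with repeated quantile normalization, with trend and robust options, with array weights, with the most variable probe set per gene, with adjustment over named genes and at an adjusted p under 0.10. It was 4 with array medians subtracted, which left Trim14 at an adjusted p of 0.0572, and 4 with the mean over probe sets, which left Trim30d at 2.03 ± 0.42 and 0.101. With dim probe sets filtered out, at least 3 arrays being required above the array median, 30 members were tested and 8 called, 7 higher and 1 lower. Leaving out 1 array at a time gave 0 to 7.

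For 19 named members under up to 14 alternatives, 231 of 265 values kept their direction and side of the threshold, 25 calls were lost, 5 were gained and 4 differences turned in 3 members that were not called: Trim8 (-0.02 without SAH array 1), Trim32 (0.02 without SAH array 5 and 0.03 without sham array 6) and Trim47 (-0.06 without sham array 8). Leaving out 1 array at a time gave -0.02 to 0.18 for Trim8, -0.13 to 0.03 for Trim32 and -0.06 to 0.13 for Trim47. No paired analysis was possible because the groups share no replicate numbers.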
